A study of Mus musculus with 6 samples.

Results

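The erythropoietin receptor axis was followed in 10 genes of mouse megakaryocytic-erythroid progenitors: the receptor gene Epor, the kinase gene Jak2, the transcription factor genes Stat5a and Stat5b, and the signal-induced genes Socs2, Socs3, Cish, Pim1, Bcl2l1 and Osm. The genes were chosen by name, and each matched 1 of the 52459 rows of the count table. All 10 passed the filter on low counts, which left 13453 genes for testing. RNA-seq libraries came from 3 pools of Tmprss6-/- (KO) and 3 pools of wild-type (WT) progenitors, with 3 mice in each pool. Tmprss6 encodes a liver protease that restrains hepcidin, and the series title describes the KO as a condition of iron deficiency. The sort kept cells negative for lineage markers, Sca, Fc gamma receptor, CD105 and CD41 and positive for cKit and CD150. The labels give no strain, no age and no detail of the Tmprss6 allele.

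Erythropoietin binds a receptor dimer on erythroid progenitors, and the JAK2 molecules attached to the receptor phosphorylate it and the STAT5 proteins that dock there. STAT5 then enters the nucleus and turns on survival genes together with Cish and the Socs genes, whose products damp the same signal. Red cell formation depends on this pathway, and erythropoietin rises in iron-deficiency anemia. Messenger RNA levels do not show phosphorylation, so the libraries report the abundance of the pathway's transcripts and not its activity.

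Total counts were 13402209 to 18105463 in KO libraries and 13666585 to 22986837 in WT libraries, and levels are given as CPM, counts per 1000000 library counts after TMM scaling. A floor of 3 counts was 0.138 to 0.220 CPM, depending on the library. Tmprss6 itself had 0, 5 and 0 counts in KO replicates 1 to 3 and 5, 4 and 0 counts in WT replicates 1 to 3, too few to check the genotype labels. Gata1, the master regulator of erythroid and megakaryocyte genes, stood at 381 to 594 CPM in KO and 443 to 610.4 CPM in WT. Kit, given below, was used in the sort and is no separate check of progenitor identity. The 10 early erythroid markers summed to 10604 to 14438 CPM in KO and 10649 to 12083 CPM in WT, and the 10 megakaryocyte markers to 211 to 350.4 CPM in KO and 190.5 to 252 CPM in WT. KO replicate 2 stood apart from the rest. It had the highest level of all 11 macrophage markers, all 10 neutrophil lineage markers, all 10 eosinophil, basophil and mast cell markers, 9 of 10 lymphoid and plasma cell markers and 9 of 10 late erythroblast markers, where 23.0% of all tested genes were highest in that library. The summed macrophage markers stood at 2233 CPM there, against 99.9 and 203 CPM in the other KO libraries and 56.8 to 185 CPM in WT. The summed late erythroblast markers stood at 5369 CPM there, against 513 and 519 CPM in the other KO libraries and 310.2 to 462.6 CPM in WT. The summed neutrophil lineage markers stood at 3401 CPM there, against 119.6 and 279 CPM in the other KO libraries and 83.0 to 378 CPM in WT. The summed eosinophil, basophil and mast cell markers stood at 7821 CPM there, against 280.2 and 52.2 CPM in the other KO libraries and 138 to 763 CPM in WT. The summed lymphoid and plasma cell markers were high in 2 KO libraries, at 1408 CPM in replicate 2 and 1094 CPM in replicate 3, against 147 CPM in replicate 1 and 46.5 to 189 CPM in WT. None of these lists had a member at 0 in all 6 libraries. In such mixed RNA, more cells of a type and more RNA per cell cannot be told apart. The fold changes of the genes named below for their levels are therefore given also without KO replicate 2 where it moves them. Without it, some marker lists still lay away from 0, with no marker called by edgeR. Median log2 fold changes were then 1.17 for late erythroblast, 0.38 for macrophage and -0.27 for lymphoid and plasma cell markers. They were -2.15 for neutrophil lineage and -1.30 for eosinophil, basophil and mast cell markers. Early erythroid markers had 0.18 and megakaryocyte markers -0.15, against -0.0030 over all genes.

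The stretches around the STAT motif TTCNNNGAA, whose letters read the same on both strands, are shown first because Cish and Socs3 were the 2 genes of the axis that held it among the promoters matched. RefSeq promoters of GRCm38.p6 cover 250 bases before to 50 after a gene's start, and 8 of the 10 genes had an entry, with 13 promoters in all. Socs2 and Osm had none. The motif is in capitals, each stretch has 30 bases, 5′ to 3′ on the strand of the gene, Cish on the plus strand at chr9:107296654-107296683 and Socs3 on the minus strand at chr11:117969502-117969531.
Cish: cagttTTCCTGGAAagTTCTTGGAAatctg
Socs3: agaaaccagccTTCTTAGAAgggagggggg
Both stretches lie inside the spans of their genes in the deposited table, given below, which reach further upstream than the RefSeq starts. The first Cish match began at the RefSeq start itself and the second 11 bases after it, while the Socs3 match began 154 bases upstream of the start. Of 32851 mouse promoters in the table, 2726 (8.30%) held the motif and 150 (0.457%) held at least 2 matches, as Cish did. The first Cish match also fits the stricter TTCCNGGAA, a palindrome within the first motif, which 1.15% of promoters held. A match is a description of the letters, and no binding was measured in these libraries.

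No gene of the axis passed the genome-wide threshold between genotypes. EdgeR's quasi-likelihood test called 0 of the 10 genes after Benjamini-Hochberg adjustment over all genes, against 0% of all 13453 genes, and none of the 10 was called under any of the 14 alternative settings, DESeq2 among them. At an unadjusted p under 0.05, edgeR had Socs2 and Socs3, 2 of the 10, against 1.74% of all genes. The same 2 genes were the ones whose KO and WT libraries did not overlap, both with KO higher, a pattern seen in 2.27% of all genes (4.03% in either direction). Fold changes were above 0 in 5 genes and below 0 in 5, with a median log2 fold change of 0.17 over the 10 and -0.0048 over all genes. Without KO replicate 2 the counts were again 5 and 5, and the median over the 10 was 0.027.

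**Figure D1:**
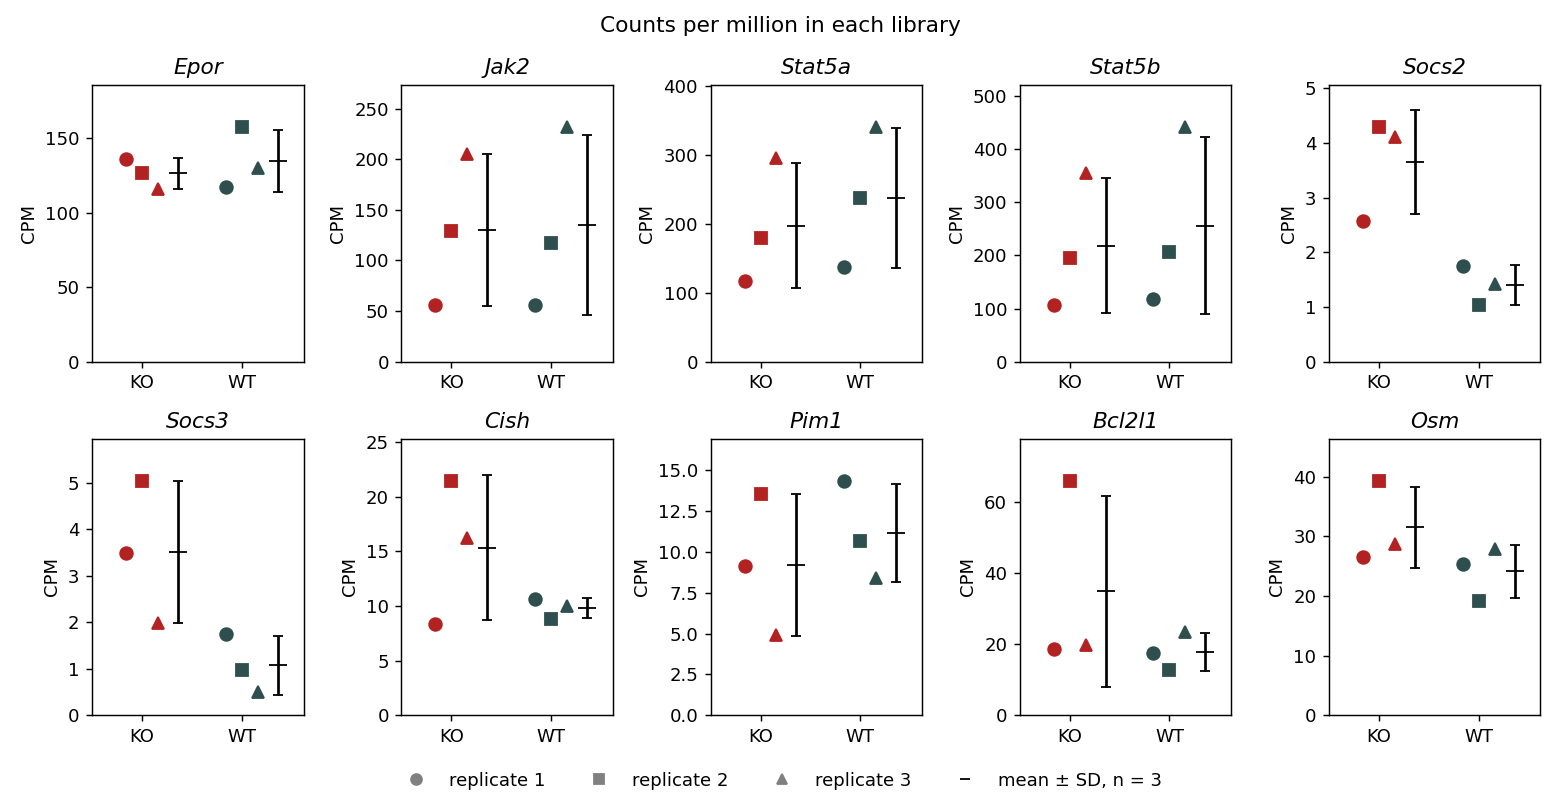
CPM of each gene (vertical axes, starting at 0) in the 3 KO and 3 WT libraries, with the marker shape giving the replicate number and bars giving the mean and SD (n = 3). Socs2 and Socs3 separate the genotypes, Jak2, Stat5a and Stat5b are lowest in the libraries numbered 1 and highest in those numbered 3 in both genotypes, and Bcl2l1 is high in KO replicate 2, at 66.1 CPM.

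Epor, the receptor through which erythropoietin keeps erythroid progenitors alive (ENSMUSG00000006235, GRCm38 chromosome 9, 21958897 to 21963506, a span from the deposited table, as for all genes below), varied least of the 10 genes, by 1.36-fold between its highest and lowest library. It gave 136, 127 and 116 CPM in KO replicates 1 to 3 and 117, 158 and 130 CPM in WT replicates 1 to 3. The groups overlapped, KO being higher in 1 of 3 pairs of the same replicate number, and WT replicate 2 had the highest level. Means were 126 ± 10.2 CPM in KO and 135 ± 20.6 CPM in WT (SD, n = 3). The log2 fold change was -0.094 (SE 0.25, 95% interval -0.67 to 0.48, edgeR adjusted p = 1.00), so log2 changes of 1 in either direction lay outside the interval. Relative to the length of the longest annotated transcript, Epor had the highest level of the 10 genes, 71.8 ± 5.79 CPM per kilobase in KO and 76.6 ± 11.7 in WT (SD, n = 3). Stat5a, Stat5b and Jak2 followed with 49.8, 41.9 and 25.9 CPM per kilobase in KO and 60.1, 49.0 and 26.8 in WT. Osm and Bcl2l1 came next with 13.9 and 13.6 in KO and 10.6 and 6.99 in WT. Pim1 and Cish had 3.41 and 3.27 CPM per kilobase in KO and 4.13 and 2.09 in WT, and Socs3 and Socs2 had 1.37 and 0.862 in KO and 0.420 and 0.331 in WT. On this scale every library had Jak2 above Socs2, Socs3 and Cish, with Jak2 at 11.1 CPM per kilobase or more and Cish at 4.57 or less. Between every pair of neighbours in the WT order the ranges over the 6 libraries overlapped.

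Jak2, the tyrosine kinase bound to the receptor (ENSMUSG00000024789, chromosome 19, 29251828 to 29313080), was similar in the same-numbered libraries of both genotypes. It gave 56.0, 129 and 205 CPM in KO replicates 1 to 3 and 56.0, 117 and 232 CPM in WT replicates 1 to 3. The spread within a genotype was far larger than the difference between genotypes. The log2 fold change was -0.053 (SE 0.60, 95% interval -1.45 to 1.35, edgeR adjusted p = 1.00). With the replicate number as a block the estimate was -0.013 with an SE of 0.14 (edgeR adjusted p = 1.00).

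Neither of the STAT5 genes, whose products carry the signal to the nucleus, passed the test. Stat5a (ENSMUSG00000004043, chromosome 11, 100859351 to 100885169) gave 117, 179 and 296 CPM in KO replicates 1 to 3 and 137, 237 and 340 CPM in WT replicates 1 to 3. Stat5b (ENSMUSG00000020919, chromosome 11, 100780731 to 100850724) gave 106, 195 and 355 CPM in KO replicates 1 to 3 and 119, 207 and 441 CPM in WT replicates 1 to 3. The groups overlapped for both genes, and each was lower in KO in 3 of 3 pairs, a pattern seen in 13.3% of all genes. Log2 fold changes were -0.27 for Stat5a (SE 0.45, edgeR adjusted p = 1.00) and -0.23 for Stat5b (SE 0.58, edgeR adjusted p = 1.00). With the replicate number as a block over all 6 libraries they were -0.28 for Stat5a (SE 0.13, edgeR adjusted p = 0.995) and -0.19 for Stat5b (SE 0.13, edgeR adjusted p = 0.995). In the pairs 1 and 3 with the replicate block, the log2 fold changes were -0.21 with an adjusted p of 0.41 by edgeR for Stat5a and -0.24 with an adjusted p of 0.33 by edgeR for Stat5b.

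The balance of the STAT5 paralogs, a ratio that does not depend on scaling, overlapped between the genotypes. Stat5b made up 47.5%, 52.1% and 54.6% of the Stat5a plus Stat5b counts in KO replicates 1 to 3 and 46.5%, 46.6% and 56.5% in WT replicates 1 to 3. The libraries numbered 3 had the largest Stat5b share in both genotypes, and the exact binomial 95% intervals were 53.5% to 55.6% in KO replicate 3 and 55.6% to 57.4% in WT replicate 3, for counting error only. Means were 51.4% ± 3.58 in KO and 49.9% ± 5.74 in WT (SD, n = 3), a difference of 1.54 percentage points (exact permutation test, two-sided, p = 0.8; a split of 3 against 3 cannot go below 0.1). The paralogs share sequence. Of the 50-base words in the longest Stat5a transcript, 10.8% also occur in that of Stat5b, so some reads could be counted for either gene. The annotated ends of Stat5a and Stat3 overlap by 72 bases on opposite strands, and reads there cannot be assigned without strand.

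Jak2, Stat5a and Stat5b differed with the replicate number. In the block fit, edgeR's test of the replicate number, chosen after the data were seen, called 2435 of 13453 genes (18.1%), and 39.1% had an unadjusted p under 0.05. Among the 10 genes it called Jak2 (libraries numbered 3 over those numbered 1: 3.90-fold, edgeR adjusted p = 0.021), Stat5b (3.53-fold, edgeR adjusted p = 0.021) and Stat5a (log2 difference 1.32, edgeR adjusted p = 0.022). Epor was not among them (0.968-fold, edgeR adjusted p = 0.64). The share called differed between the lists of the pathway, with 4 of 8 other JAK and STAT genes, 11 of 29 genes of receptor trafficking and adaptors, 4 of 18 other inhibitors, 1 of 18 other cytokine receptors and 1 of 14 other genes induced by STAT5 or erythropoietin. All of these were higher in the libraries numbered 3, as were 1372 of all 13453 tested genes (10.2%). The JAK and STAT genes called were Jak1 (2.46-fold) and Tyk2 (2.49-fold), kinases of other cytokine receptors, and Stat3 (3.11-fold) and Stat6 (2.21-fold). The receptor called was that of stem cell factor, Kit, which was used in the sort (4.06-fold, edgeR adjusted p = 0.021), at 316, 578 and 1246 CPM in KO replicates 1 to 3 and 392, 822 and 1640 CPM in WT replicates 1 to 3.

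**Figure D2:**
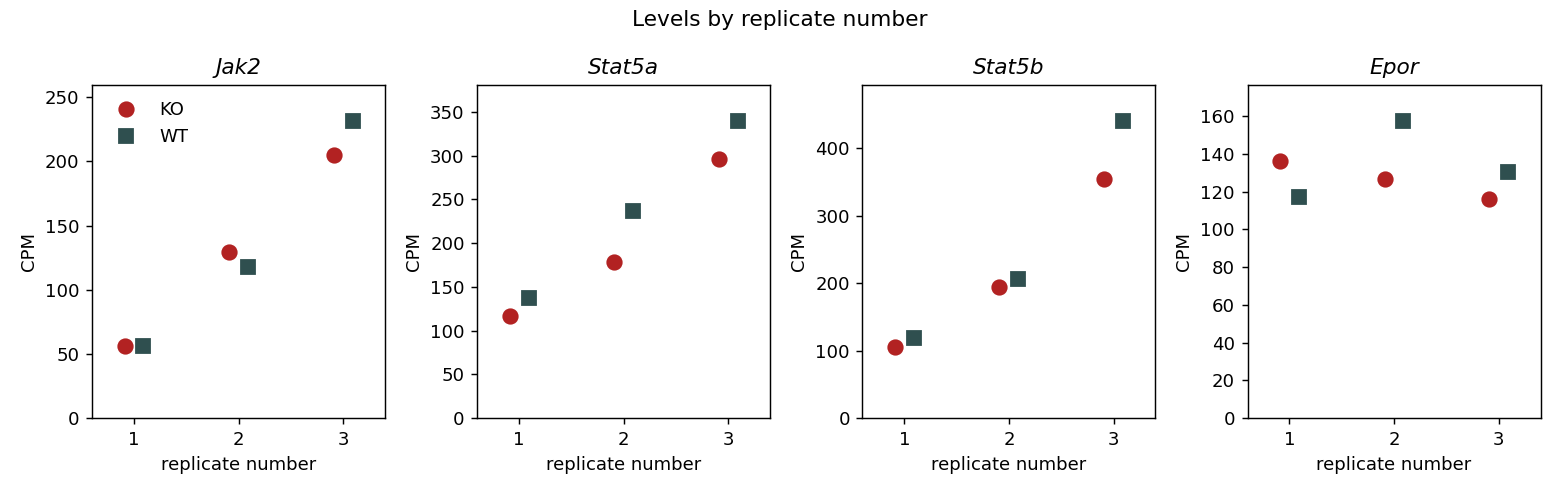
CPM of Jak2, Stat5a, Stat5b and Epor (vertical axes, starting at 0) against the replicate number of the library, with KO as circles and WT as squares. Jak2 stands at 56.0 CPM in both libraries numbered 1 and at 205 (KO) and 232 CPM (WT) in those numbered 3, while Epor stays between 116 and 158 CPM.

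Other measures moved with the replicate number as well, and their part in this pattern was not tested. Genes whose longest transcript has at least 4000 nt held 18.8%, 28.5% and 29.9% of the CPM of tested genes in KO replicates 1 to 3 and 19.9%, 24.7% and 31.8% in WT replicates 1 to 3. The longest transcripts of Jak2, Stat5b and Stat5a have 5030, 5213 and 3958 nt, while that of Epor has 1761 nt. Those of Cish and Socs2 have 4697 and 4242 nt, and neither gene was called for the replicate number (edgeR adjusted p = 0.62 and 0.96). Their log2 differences, libraries numbered 3 over those numbered 1, were imprecise, at 0.37 (SE 0.45) for Cish and 0.15 (SE 0.58) for Socs2. The median over the genes of at least 4000 nt was 0.70. Over the 4371 genes of at least 4000 nt, the test of the replicate number called 998 as higher in the libraries numbered 3 (22.8%), against 374 of the 9072 shorter genes (4.12%). The libraries numbered 3 had 175 Xist counts in KO and 351 in WT, against at most 1 in the others, and at most 1 count of the Y-linked Ddx3y, against at least 872 in the others. Sex and replicate number cannot be told apart for the libraries numbered 3. What a number stands for is not given in the labels.

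Socs2 and Socs3, of a family of inhibitors that bind activated cytokine receptors or JAK kinases, were the 2 genes of the axis whose KO and WT libraries separated, although neither passed the threshold over all genes. Socs2 (ENSMUSG00000020027, chromosome 10, 95385362 to 95417180) had 42, 69 and 56 counts in KO replicates 1 to 3 and 38, 15 and 20 counts in WT replicates 1 to 3. These corresponded to 2.57, 4.29 and 4.11 CPM in KO and 1.75, 1.03 and 1.42 CPM in WT. Every KO library lay above every WT library, and the means were 3.66 ± 0.948 CPM in KO and 1.40 ± 0.360 CPM in WT (SD, n = 3). KO was 2.59-fold higher (log2 fold change 1.37, SE 0.49, 95% interval 0.23 to 2.51, edgeR adjusted p = 1.00), and Socs2 ranked 72 of 13453 genes by p. It was higher in KO in 3 of 3 pairs, a pattern seen in 11.5% of all genes. Without KO replicate 2 the log2 fold change was 1.24 (SE 0.52, edgeR unadjusted p = 0.050, adjusted p = 1.00).

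Socs3 (ENSMUSG00000053113, chromosome 11, 117966079 to 117970047), an inhibitor of JAK2 itself, had 57, 81 and 27 counts in KO replicates 1 to 3 and 38, 14 and 7 counts in WT replicates 1 to 3. These corresponded to 3.49, 5.04 and 1.98 CPM in KO and 1.75, 0.965 and 0.498 CPM in WT. The groups did not overlap, but the lowest KO library, replicate 3, was close to the highest WT library, replicate 1. Means were 3.50 ± 1.53 CPM in KO and 1.07 ± 0.634 CPM in WT (SD, n = 3). By the fit KO was 3.22-fold higher (log2 fold change 1.69, SE 0.64, 95% interval 0.21 to 3.17, edgeR adjusted p = 1.00). Within the pairs 1, 2 and 3 the log2 difference was 0.94, 2.24 and 1.76. Without KO replicate 2 the log2 fold change was 1.33 (SE 0.67, edgeR unadjusted p = 0.091, adjusted p = 1.00), and in the pairs 1 and 3 with the block it was 1.41 (SE 0.61, edgeR adjusted p = 0.33). The counts of both genes were low, at the percentiles 11.6 (Socs2) and 7.84 (Socs3) of tested genes by mean WT level. Both were highest in KO replicate 2, although Socs2 was nearly as high in KO replicate 3, at 4.11 against 4.29 CPM. The macrophage and granulocyte markers and most late erythroblast and lymphoid markers were highest in KO replicate 2 too, and the part of those cells in the difference was not tested.

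Cish, the inhibitor that competes with STAT5 for the receptor (ENSMUSG00000032578, chromosome 9, 107296026 to 107302784), did not separate the genotypes. It gave 8.32, 21.5 and 16.2 CPM in KO replicates 1 to 3 and 10.7, 8.82 and 10.03 CPM in WT replicates 1 to 3. KO replicate 1 was the lowest of the 6 libraries and the other 2 KO libraries were the highest, so the KO libraries spread widely around a tight WT group. Means were 15.3 ± 6.62 CPM in KO and 9.83 ± 0.932 CPM in WT (SD, n = 3). The log2 fold change was 0.64 (SE 0.41, 95% interval -0.32 to 1.60, edgeR adjusted p = 1.00), and 0.32 without KO replicate 2. Among 9512 candidate genes, the 5 whose centred log2 CPM lay closest to Cish over the 6 libraries were Nckipsd, Znrf3, Naprt, Gramd1b and P2ry2, at root mean square distances of 0.12 to 0.17 log2 units, where the median candidate had 0.60. For Epor the closest were Nupl1, Mfap3, Slx1b, H2-DMa and Slc37a4, at 0.055 to 0.083, where the median candidate had 0.43.

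**Figure D3:**
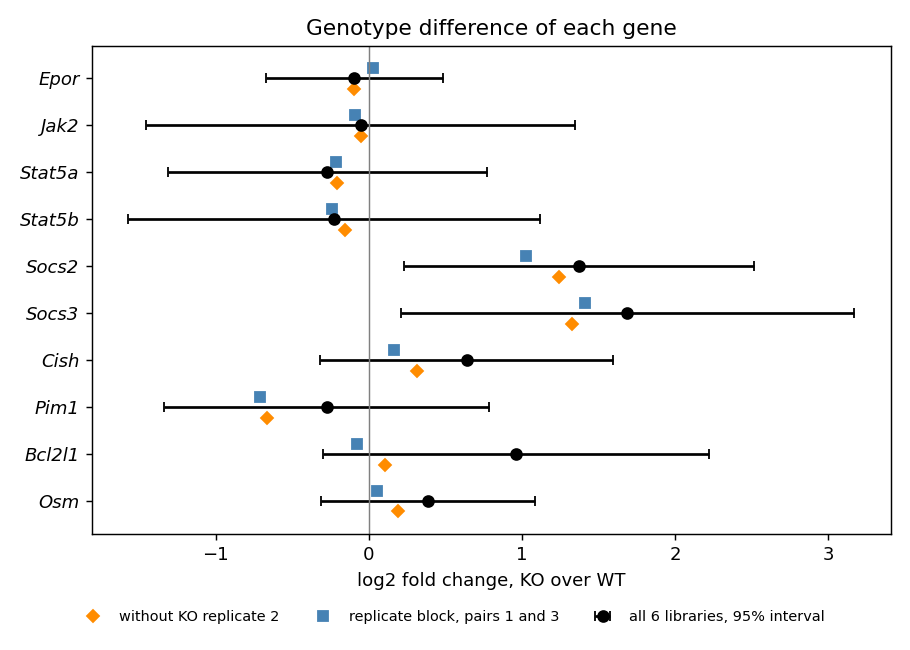
Log2 fold change, KO over WT, of each gene (horizontal axis), from all 6 libraries with its 95% interval (black), without KO replicate 2 (orange) and from the pairs 1 and 3 with the replicate block (blue). The intervals of Socs2 (0.23 to 2.51) and Socs3 (0.21 to 3.17) lie above 0 before adjustment over all genes, and Bcl2l1 drops to 0.11 without KO replicate 2.

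Bcl2l1, whose long product Bcl-xL protects erythroblasts from death (ENSMUSG00000007659, chromosome 2, 152780668 to 152831728), was high in 1 KO library. It gave 18.8, 66.1 and 19.9 CPM in KO replicates 1 to 3 and 17.6, 12.7 and 23.5 CPM in WT replicates 1 to 3. KO replicate 2 stood 3.42-fold above the mean of the other KO libraries, which lay inside the WT range. The log2 fold change was 0.96 (SE 0.54, edgeR adjusted p = 1.00) with all libraries, 0.11 (SE 0.36) without KO replicate 2 and -0.074 (SE 0.21, edgeR adjusted p = 0.93) in the pairs 1 and 3 with the block. Most late erythroblast markers were highest in the same library, as were the macrophage and granulocyte markers and most lymphoid markers given above. The part of any of these cells in the Bcl2l1 level was not tested.

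Pim1, a serine kinase that supports survival of blood cells (ENSMUSG00000024014, chromosome 17, 29490812 to 29496111), gave 9.11, 13.6 and 4.92 CPM in KO replicates 1 to 3 and 14.3, 10.7 and 8.40 CPM in WT replicates 1 to 3. The groups overlapped, with KO lower in the pairs 1 and 3 and higher in the pair 2. The log2 fold change was -0.28 (SE 0.46, edgeR adjusted p = 1.00) over 6 libraries, -0.67 without KO replicate 2 and -0.71 (SE 0.29, edgeR adjusted p = 0.28) in the pairs 1 and 3 with the block.

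Osm, a cytokine of the interleukin-6 family whose gene responds to STAT5 (ENSMUSG00000058755, chromosome 11, 4236420 to 4241026), gave 26.6, 39.3 and 28.6 CPM in KO replicates 1 to 3 and 25.4, 19.2 and 27.8 CPM in WT replicates 1 to 3. KO was higher in 3 of 3 pairs, but the pair differences were 0.069, 1.03 and 0.042 log2 units, the largest by far in pair 2. The log2 fold change was 0.38 (SE 0.30, edgeR adjusted p = 1.00); without KO replicate 2 it was 0.19. Osmr, the gene of its receptor, had 0 counts in all 6 libraries, which allows up to 0.138 to 0.220 CPM by counting error, depending on the library.

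The rest of the pathway, in 5 lists of genes, showed no call in edgeR's test over the 6 libraries. Of 18 tested genes of other cytokine receptors, 14 had a fold change above 0, with a median log2 fold change of 0.32, where 49.3% of all genes lay above 0. The 3 of smallest p were the receptor gene for granulocyte colony-stimulating factor, Csf3r, and 2 genes of receptor beta chains of the interleukin-3 family, Csf2rb2 and Csf2rb. These 2 are close paralogs whose reads may be split uncertainly between them. Csf3r gave 13.1, 36.8 and 8.08 CPM in KO replicates 1 to 3 and 6.36, 5.31 and 3.91 CPM in WT replicates 1 to 3 (log2 fold change 1.89, SE 0.59, edgeR adjusted p = 1.00). Csf2rb gave 9.17, 56.5 and 7.42 CPM in KO and 6.92, 4.89 and 2.56 CPM in WT (log2 fold change 2.34, edgeR adjusted p = 1.00), and Csf2rb2 2.20, 21.8 and 2.28 CPM in KO and 0.323, 1.03 and 1.57 CPM in WT (log2 fold change 3.18, edgeR adjusted p = 1.00). In all 3 receptors the genotypes did not overlap, with KO higher, a pattern seen in 2.27% of all genes. They were the only 3 of the 18 to separate, and they were named for their small p. KO replicate 2 was their highest library. It was also highest for the neutrophil lineage markers, the macrophage markers and the eosinophil, basophil and mast cell markers, whose part was not tested. Without that library the log2 fold changes were 1.03 for Csf3r (SE 0.41), 0.79 for Csf2rb (SE 0.49) and 1.21 for Csf2rb2 (SE 0.74), each with an edgeR adjusted p of 1.00. Of the 22 listed genes with counts, 16 were highest in KO replicate 2. Without it 7 of the 18 tested lay above 0, with a median of -0.12, and in the pairs 1 and 3 with the block 8 did, with a median of -0.057.

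Of 8 other JAK and STAT genes, 5 lay above 0 over the 6 libraries (median 0.013), 2 without KO replicate 2 (median -0.16) and 0 in the pairs 1 and 3 (median -0.21). The medians over all genes were -0.0030 without KO replicate 2 and -0.010 in the pairs 1 and 3. In both of these pairs the CPM share of long transcripts, given above, was lower in KO, and its part was not tested. Stat4 and Jak3, among the 3 of smallest p, had log2 fold changes of 0.45 and -0.17 (edgeR adjusted p = 1.00 for both), and of -0.11 and -0.26 without KO replicate 2. Of the 18 other inhibitors of the pathway, 14 lay above 0 over the 6 libraries (median 0.12), 9 without KO replicate 2 (median -0.011) and 9 in the pairs 1 and 3 (median 0.0077), and 9 were highest in KO replicate 2. In 2 of the 18 the genotypes did not overlap, both with KO higher, against 2.27% of all genes. Among them was Socs1, an inhibitor of JAK kinases, at 4.71, 9.64 and 5.07 CPM in KO replicates 1 to 3 and 3.97, 1.79 and 2.92 CPM in WT replicates 1 to 3, so that the groups did not overlap (log2 fold change 1.16, SE 0.52, edgeR adjusted p = 1.00; without KO replicate 2 it was 0.75). Sh2b3, the adaptor that restrains JAK2, and Cbl, a ubiquitin ligase, had log2 fold changes of 0.75 and 0.52 with all libraries and of -0.19 and -0.050 without KO replicate 2, where both were highest. Of 29 genes of receptor trafficking and adaptors, 15 lay above 0 over the 6 libraries (median 0.022), 10 without KO replicate 2 (median -0.097) and 8 in the pairs 1 and 3 (median -0.12). Mapk3, Grb2 and Irs2, which relay the signal to the MAP kinase and phosphoinositide pathways, had the smallest p, with log2 fold changes of 0.35, -0.35 and 0.33 with all libraries and of 0.21, -0.18 and 0.23 without KO replicate 2.

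**Figure D4:**
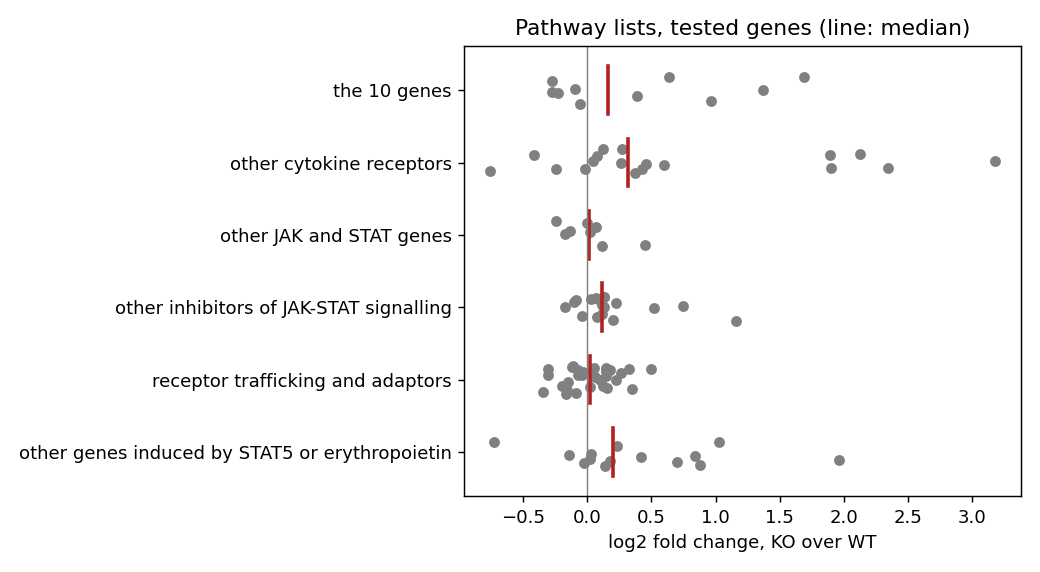
Log2 fold change, KO over WT, of every tested gene (points) of the 10-gene axis and of 5 further lists, with the median of each list as a line. The medians run from 0.013 for other JAK and STAT genes to 0.32 for other cytokine receptors with all 6 libraries, and Csf2rb2, at 3.18, is the point farthest to the right.

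Of 14 tested genes induced by STAT5 or erythropoietin, 11 lay above 0 over the 6 libraries (median 0.20), 9 without KO replicate 2 (median 0.14) and 8 in the pairs 1 and 3 (median 0.14), and 10 of the 17 listed genes with counts were highest in KO replicate 2. The genotypes did not overlap in 2 of the 14 with KO higher and in 1 with KO lower, against 2.27% and 1.75% of all genes. Tfrc, the transferrin receptor, gave 343, 476 and 204 CPM in KO replicates 1 to 3 and 100.5, 97.0 and 65.5 CPM in WT replicates 1 to 3, without overlap. It was called by DESeq2 (log2 fold change 1.96, DESeq2 adjusted p = 0.018), which called 0.0275% of the genes it tested, but not by edgeR over the 6 libraries (adjusted p = 1.00) or without KO replicate 2 (log2 fold change 1.64, edgeR adjusted p = 1.00). Whether the Tfrc level went with STAT5 signalling or with the iron deficiency named in the series title was not tested. Egr1, an immediate early transcription factor gene, was lower in every KO library than in any WT library, at 98.5, 120.1 and 146 CPM in KO replicates 1 to 3 and 175, 158 and 269 CPM in WT replicates 1 to 3 (log2 fold change -0.72, SE 0.31, edgeR adjusted p = 1.00). With the block on the pairs 1 and 3 alone, edgeR called Tfrc higher, at 1.70 log2 units (adjusted p = 1.70e-06 by edgeR). It called Egr1 lower, at -0.86 (adjusted p = 0.00090 by edgeR), where 0.258% of genes were called higher and 0.604% lower. The same fit called 4 of 10 late erythroblast markers and 3 of 10 early erythroid markers, Tfrc among the latter, higher in KO. It also called 1 of 8 lymphoid and plasma cell markers higher. Lower in KO were 4 of 9 eosinophil, basophil and mast cell markers and 2 of 9 neutrophil lineage markers. That fit rests on few libraries, and the pairing was read from the same counts. Pair 2, which it leaves out, had the weakest correlation of deviations, 0.16. With the block on all 6 libraries neither gene was called. Tfrc then stood at 1.90 (adjusted p = 0.56 by edgeR) and Egr1 at -0.70 (adjusted p = 0.995 by edgeR). Pim2, a close relative of Pim1, gave 26.1, 42.2 and 16.9 CPM in KO and 14.8, 17.0 and 14.6 CPM in WT (log2 fold change 0.88, SE 0.38, edgeR adjusted p = 1.00; without KO replicate 2 it was 0.47).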

How the data were processed

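The authors deposited whole-number read counts per Ensembl gene, unscaled, for 6 libraries. Per the submitters' processing notes, FastQC 0.11.5, STAR 2.5.3a and edgeR were used, and the builds GRCm38.p3 and GRCh38.p3 are named. For the counter, its strand setting and multi-mapped reads the entry is: not given in the sources used here. Per the labels' protocols, the SMART-Seq v4 kit served for cDNA and Nextera XT for the libraries.

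Genes were filtered with filterByExpr (minimum count 10, minimum total 15), scaled by TMM and tested with edgeR 4.0.16 (quasi-likelihood, two-sided, Benjamini-Hochberg threshold 0.05) in R 4.3.3. CPM use TMM-scaled library sizes. Fold changes, always KO over WT, come from the fits, and differences within pairs from log2 CPM with a prior count of 2. Alternatives were DESeq2 1.42.0, limma 3.58.1 voom with quality weights, other scalings and filters, leaving out each library, and the replicate block; the test of the replicate number was added after the data were seen. Fits were tested on simulated data. Lengths are of the longest GENCODE M21 transcript.

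The members and lists were chosen with earlier results of these data known. Of each pathway list, the 3 genes of smallest p and any called are named, except 1 that is not reported here; for Cish and Epor, the 5 of most similar pattern with at least 5 CPM, members and predicted models left out. Deviations from the group means correlated at 0.53, 0.16 and 0.63 between libraries numbered 1, 2 and 3, each over 0.1, so the numbers were taken to pair the libraries; this comes from the data, not from the labels.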

Additional observations from a re-analysis of the deposited data

How the results depend on the processing

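Of 140 alternative values for the 10 fold changes, 129 kept their direction and 11 reversed, and none passed the threshold. Socs2, Socs3, Cish and Osm stayed above 0 in all 15 settings, which reuse the same libraries. Their lowest log2 fold changes were 1.02, 1.33, 0.17 and 0.053, so those of Cish and Osm came near 0. With the replicate block on the pairs 1 and 3, the log2 fold change was 0.026 for Epor and -0.074 for Bcl2l1, and limma voom with quality weights gave 0.27 for Jak2 and 0.16 for Stat5b. Leaving out 1 library gave ranges of -0.19 to 0.038 for Epor, -0.56 to 0.59 for Jak2, -0.70 to 0.079 for Stat5a, -0.78 to 0.43 for Stat5b and -0.67 to 0.020 for Pim1. The signs turned without KO replicate 1 (Jak2, Stat5b), KO replicate 3 (Pim1), WT replicate 2 (Epor) and WT replicate 3 (Jak2, Stat5a, Stat5b), and the cause was not tested. The Stat5b share differed by 1.54 points with the replicate block as without it (sign-flip exact p = 0.75, smallest possible 0.25) and by -0.16 to 4.85 when 1 library was left out. The genes called over the table were 0 with edgeR (234 at an unadjusted p under 0.05), 0 with the replicate block on all libraries (476), 35 higher and 82 lower with the block on the pairs 1 and 3, and 5 higher and 2 lower with DESeq2 (510). The block changed no call among the 10 genes. Socs2 and Socs3 had 7 to 81 counts per library, the lowest of the 10 genes.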
